A study of Mus musculus with 8 samples.

Results

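The set described here holds the 35 genes of pyruvate dehydrogenase (PDH) and of the tricarboxylic acid (TCA) cycle that were listed by name, from *Pdha1* to *Glud1*, with the kinases and phosphatases of PDH and the 4 subunits of respiratory complex II included. All 35 had 1 gene identifier in the table of 44674 genes and all 35 passed the filter on low counts, so they are 35 of the 14489 genes tested. They were measured by mRNA sequencing of brown adipose tissue (BAT) of 4 control mice (Ox1R fl/fl without Cre, Sert-Cre wt/wt) and 4 Ox1RΔSERT mice (Ox1R fl/fl with Sert-Cre tg/wt, labelled Sert-Ox1R). All 8 were male, carried the floxed alleles of orexin receptor 1, received a high-fat diet (HFD) from week 4 to week 18 and were killed for tissue between 14 and 16 h at the end of a hyperinsulinemic-euglycemic clamp, in which insulin is infused and glucose is given to hold blood glucose steady. The Cre is driven by the gene of the serotonin transporter (SERT), so that the receptor is lost in cells that express SERT and not by design in brown adipocytes. The comparison asks how BAT of obese mice under insulin differed when serotonergic neurons lacked this receptor.

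Pyruvate made by glycolysis enters mitochondria through a carrier and is turned into acetyl-CoA by the PDH complex. PDH kinases switch the complex off by phosphorylation, and PDH phosphatases switch it on again. Acetyl-CoA joins oxaloacetate to form citrate, and the turn of the cycle back to oxaloacetate yields the NADH and succinate that feed the respiratory chain. Brown adipocytes are rich in mitochondria and burn fatty acids and glucose for heat, with the cycle running at the junction of both fuels.

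The libraries held 35852708 to 50063339 estimated counts. The receptor gene *Hcrtr1* had 0 to 5 counts in controls and 0 to 5 in Ox1RΔSERT mice, which checks nothing about the labels, since BAT is not where the deletion was aimed. All 10 brown adipocyte markers were above 3 counts in all 8 mice. Ox1RΔSERT mice 11601 and 11708 stood apart from the other 6 mice. Their summed normalized levels of 10 macrophage and leukocyte markers were 772 and 605, against 90.2 to 209 in controls and 145 and 153 in the other two Ox1RΔSERT mice. Of these 10 markers, *Cd3e* and *Cd79a* were at or under 3 counts in at least 1 mouse. Skeletal muscle markers summed to 1727 in control 11253, to 2373 in 11708 and to 189 in 11601, and to 2.52 to 44.5 in the other 5 mice. Because the samples are whole tissue, fewer cells of a type and less RNA per cell cannot be told apart.

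Levels were first compared between the genes per transcript length, as TPM, a share of all transcripts in a mouse after division by transcript length. The 35 genes together took 0.929% to 1.23% of all TPM in controls and 1.06% to 1.32% in Ox1RΔSERT mice. The highest mean control level was that of *Sdha*, the flavoprotein subunit of complex II, at 720 ± 100.2 TPM (SD, n = 4), followed by *Idh3b*, *Mdh2*, *Mpc1*, *Idh3g*, *Sdhb* and *Sucla2*, which lay between 708 and 682 TPM. The lowest was *Pdk3* at 0.436 ± 0.126 TPM. In the order of the levels, 29 of the 34 neighbouring pairs overlapped in the ranges of the controls, so that most ranks cannot be told apart. The 5 steps without overlap stood between *Dlat* (159 TPM) and *Pcx* (72.7 TPM), between *Pdhx* (46.4 TPM) and *Got1* (25.2 TPM), between *Got1* and *Pdpr* (13.3 TPM), between *Pdk1* (12.5 TPM) and *Got2* (4.79 TPM), and between *Pck2* (1.96 TPM) and *Pdk3*. Thus 22 of the 35 genes lay above 100 TPM. Below it lay the regulators of PDH, the transaminases, and also *Pcx*, *Glud1*, *Suclg2*, *Pdhx* and *Pck2*.

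**Figure D1:**
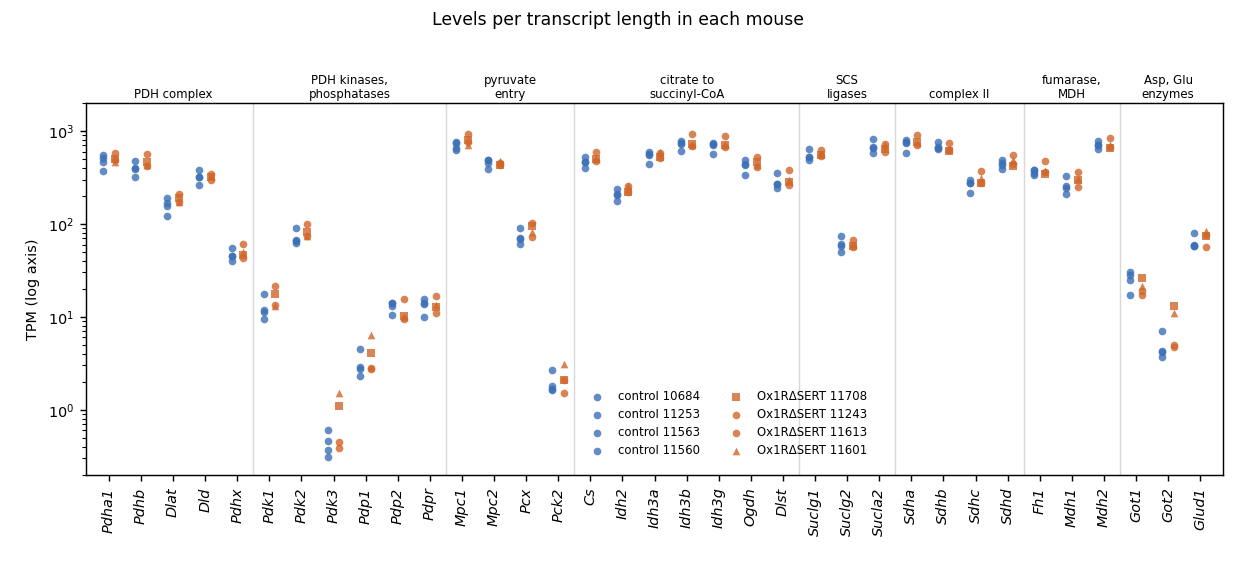
TPM (log axis) of the 35 genes, ordered by role, in each of 4 control mice (blue) and 4 Ox1RΔSERT mice (orange, with mouse 11708 as a square and 11601 as a triangle). Most enzymes lie above 100 TPM, while *Pdk1*, *Pdk3*, *Pdp1*, *Pdp2*, *Pdpr*, *Pck2*, *Got1* and *Got2* lie far below them in both groups.

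Isoforms of one role differed widely in level. Among the kinases of PDH, *Pdk2* had 71.1 ± 12.7 TPM in controls, *Pdk1* 12.5 ± 3.504 TPM and *Pdk3* 0.436 ± 0.126 TPM (SD, n = 4), and their ranges over the 4 mice did not overlap. *Pdk4*, the kinase known to be induced by fasting and fatty acids, is not one of the 35 genes but was in the list of other pathway genes, and had 346 TPM in controls on average. Of the subunits that give the succinyl-CoA ligases their nucleotide, *Sucla2* (ATP-forming) stood above *Suclg2* (GTP-forming) by a TPM ratio of 11.3 ± 0.437 in controls and 10.97 ± 0.457 in Ox1RΔSERT mice (SD, n = 4 each). The 4 ratios of one group overlapped with those of the other.

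Between the groups, edgeR called 0 of the 35 genes at an adjusted p under 0.05, as it called 0 of all 14489 genes (0.0%). DESeq2 also called 0 of the 35, against 265 of 15119 genes (1.75%). The lowest adjusted p of the 35 was 0.316 with edgeR, and with DESeq2 it was 0.0879, for *Got1*. With a library left out, DESeq2 called 1 of the 35 without control 10684 (2.64% of all genes), 5 without Ox1RΔSERT mouse 11243 (9.44%) and 1 without 11613 (6.02%). At an unadjusted edgeR p under 0.05, 8 of the 35 (22.9%) were lower in Ox1RΔSERT mice and 0 were higher, while of all genes tested 4.96% were lower and 10.2% higher. These 8 were *Got1*, *Sucla2*, *Pdp2*, *Pdpr*, *Dld*, *Mpc2*, *Sdhb* and *Suclg2*. The count changed with single mice. It was 1 without control 10684 (6.54% of all genes were then lower), 3 without control 11563 (2.72%), 2 without control 11560 (2.02%), 1 without Ox1RΔSERT mouse 11708 (2.13%) and 2 without 11601 (2.51%). It was 7 without control 11253 (6 lower, against 4.22% of all genes, and *Got2* higher, against 9.5%), 11 without 11243 (8.5%) and 8 without 11613 (5.97%). It was 1 (*Got1*, where 1.2% of all genes were lower) without both 11601 and 11708, and it was 0 when counts were scaled by library size alone or when TPM was tested. For these scalings the share of all genes at that threshold is not given. At any p, 19.3% of all genes were below 0 with library sizes alone and 9.03% on log2(TPM + 1).

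The direction of the set depended on the scaling. After TMM scaling, which sets the bulk of all genes level between mice, 32 of the 35 genes had a log2 fold change below 0, with a median of -0.20 against 0.0021 over all genes tested, but on log2(TPM + 1) only 5 of the 35 were below 0 and the median was 0.11, against 0.23 over all genes. With library sizes alone, 20 of 35 were below 0, with a median of -0.0085 against 0.22 over all genes. Taken as a difference from the median of all genes tested, the set's median was below 0 under each, at -0.21 after TMM, -0.23 with library sizes alone, -0.12 on log2(TPM + 1) and -0.21 on log2(TPM + 0.1). Transcripts of the 13 protein genes of the mitochondrial genome made up 61.3% to 65.0% of the TPM in controls, and 58.5%, 63.6%, 54.7% and 55.1% in Ox1RΔSERT mice 11708, 11243, 11613 and 11601. The part of this share in the difference between scalings was not tested. Values from here on are CPM after TMM scaling, called normalized values, unless TPM is named.

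**Figure D2:**
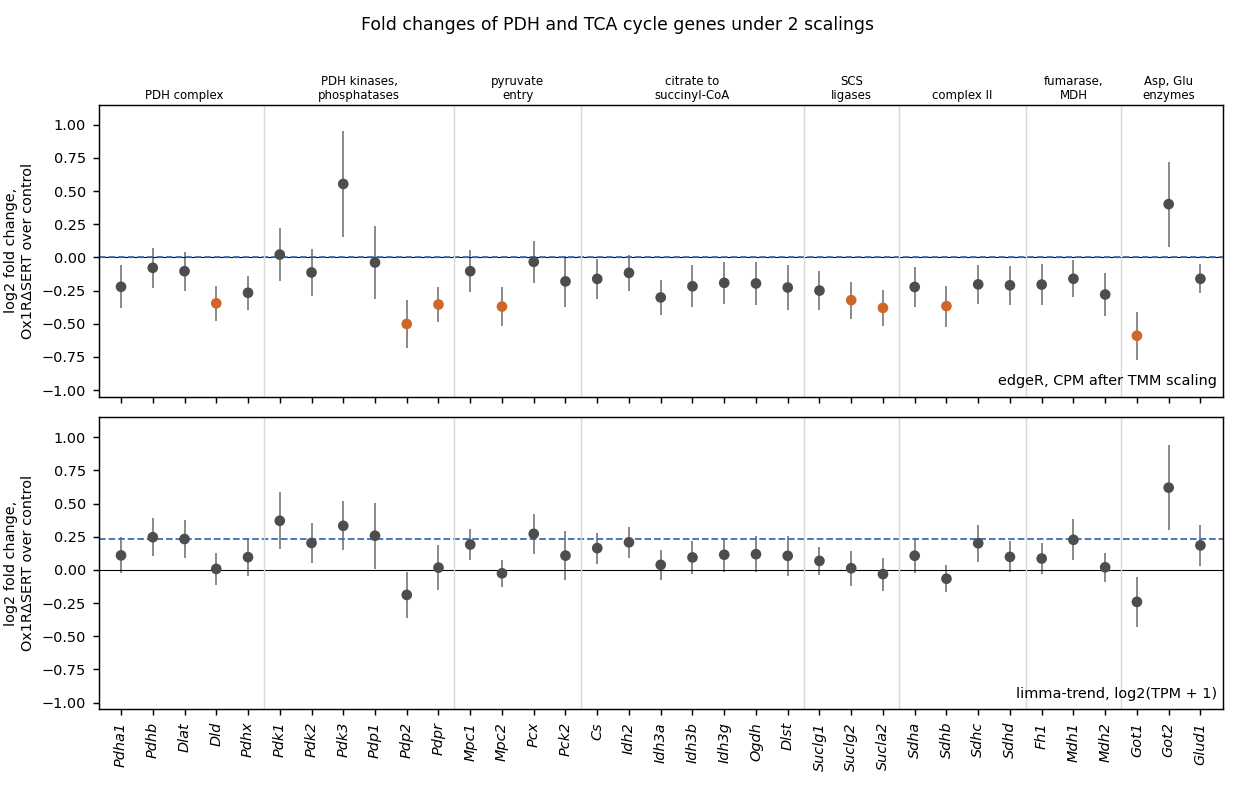
Log2 fold changes (Ox1RΔSERT over control) of the 35 genes with standard errors, from edgeR after TMM scaling (top, with the 8 genes at an unadjusted p under 0.05 in orange) and from limma-trend on log2(TPM + 1) (bottom). The dashed line is the median of all 14489 genes, 0.0021 in the top and 0.23 in the bottom plot. In the top plot 32 of 35 points lie below 0, and in the bottom plot the direction turns, with 30 of 35 above 0 and 28 of 35 below the dashed line.

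The mice of the Ox1RΔSERT group did not move together. In each mouse, the median over the 35 genes of the log2 ratio to the control mean was 0.15, -0.090, -0.068 and -0.0094 in controls 10684, 11253, 11563 and 11560, and -0.42, -0.014, -0.042 and -0.49 in Ox1RΔSERT mice 11708, 11243, 11613 and 11601. Thus 11243 and 11613 lay within the control range and 11708 and 11601 far under it. These 2 mice held the 2 lowest of the 8 values in 27 of the 35 genes (77.1%), against 15.3% of all genes tested. Mouse 11601 was below all 4 controls in 30 of the 35 genes and 11708 in 29, against 28.6% and 28.7% of all genes tested. The exceptions to this order were *Pdk1*, *Pdk3*, *Pdp1*, *Pcx*, *Pck2*, *Got1*, *Got2* and *Glud1*. Without both mice, 19 of 35 genes were below 0 and 16 above, with a median of -0.024 against -0.012 over all genes. The pair was picked from these data and held the lowest values in most of the 35 genes. A median nearer to 0 without it was thus fixed by the choice. At the other end, control 10684 had the highest value of all 8 mice in 25 of the 35 genes (71.4%), against 18.7% of all genes.

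**Figure D3:**
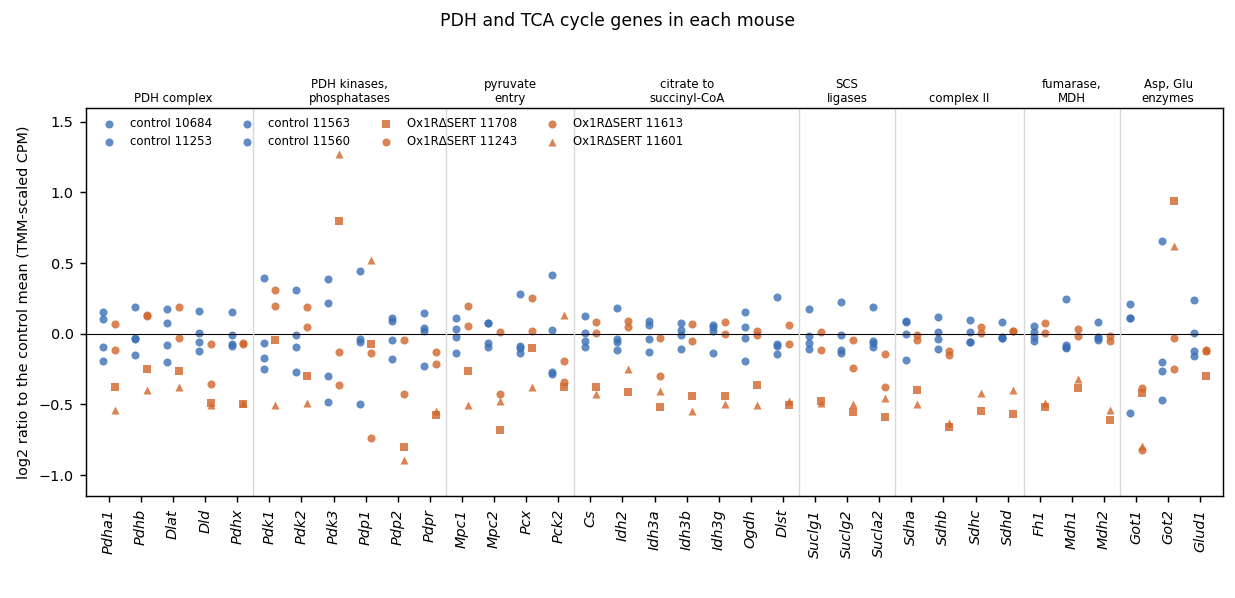
Log2 ratio of each normalized value (CPM after TMM scaling) to the mean of the 4 controls, for the 35 genes ordered by role. Blue points are controls, orange points Ox1RΔSERT mice. The square (11708) and the triangle (11601) lie under all other points in most genes, while the orange circles (11243 and 11613) lie among the controls. On log2(TPM + 1) the direction turns in 27 of the 32 genes that were below 0 after TMM scaling.

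The PDH complex joins pyruvate to the cycle with 3 enzymes and a binding protein. All 5 of its genes had a log2 fold change below 0 after TMM scaling and above 0 on log2(TPM + 1). *Dld*, the dihydrolipoyl dehydrogenase that PDH shares with 2-oxoglutarate dehydrogenase, had normalized values of 946 (10684), 775 (11253), 810.4 (11563) and 848 (11560) in controls, and 600.4 (11708), 803 (11243), 659.5 (11613) and 597 (11601) in Ox1RΔSERT mice. Mice 11708, 11613 and 11601 were below all controls, and 11243 lay among the controls. The log2 fold change was -0.35 ± 0.13 (SE), with an unadjusted p of 0.0266 and an adjusted p of 0.316 in edgeR, and p = 0.0571 in the exact permutation test. *Pdhx*, the binding protein that holds the dehydrogenase in the complex, had -0.27, and *Pdha1*, the catalytic subunit that the kinases phosphorylate, had -0.22. *Dlat*, the acetyltransferase core, had -0.10 and *Pdhb*, the second subunit of the first enzyme, -0.078. The difference between these fold changes was not tested. The TPM ratio of *Dld* to *Pdhb*, which no scaling of a library can alter, was 0.801, 0.821, 0.809 and 0.830 in controls and 0.685, 0.708, 0.617 and 0.759 in Ox1RΔSERT mice, so that the groups did not overlap. This pair was picked after its values were seen.

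Of the enzymes that switch PDH, the phosphatase side held both genes under the unadjusted threshold. *Pdp2*, a catalytic subunit of PDH phosphatase, had normalized values of 62.5, 51.8, 57.1 and 63.5 in controls 10684, 11253, 11563 and 11560, and 33.6, 43.7, 57.0 and 31.6 in mice 11708, 11243, 11613 and 11601. Mouse 11613 lay among the controls and the other three Ox1RΔSERT mice below them. The log2 fold change was -0.50 ± 0.18 (SE, unadjusted p = 0.0236, adjusted p = 0.316 in edgeR, exact permutation p = 0.0571). *Pdpr*, the regulatory subunit of the phosphatase, had 78.2, 60.3, 71.6 and 72.8 in the controls and 47.4, 61.0, 64.6 and 48.3 in the Ox1RΔSERT mice. Only 11708 and 11601 were below the controls, and the log2 fold change was -0.35 ± 0.13 (unadjusted p = 0.0245, adjusted p = 0.316 in edgeR, exact permutation p = 0.0857). Annotated exons of *Pdpr* overlap an RNA gene on the opposite strand over 169 bases. Longer overlaps with a gene on the opposite strand were found for 3 other genes of the set. They were 603 bases for *Pdha1* (with the protein-coding *Map3k15*), 480 for *Mpc1* (with an RNA gene) and 434 for *Got2* (with *Gm45760*). *Pdp1*, the other catalytic subunit, had 7.27 to 13.9 in controls and 6.13 to 14.7 in Ox1RΔSERT mice, which overlapped, with a log2 fold change of -0.038. On log2(TPM + 1), *Pdp2* alone of the 6 switch genes stayed below 0.

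None of the kinases passed the unadjusted threshold, and the difference between kinases and phosphatases was not tested. *Pdk2* had 163 to 242 in controls and 139.5 to 223 in Ox1RΔSERT mice, with a log2 fold change of -0.11 ± 0.18. As in *Pdpr*, only 11708 (159) and 11601 (139.5) were below all controls in *Pdk2*. *Pdk1* had 59.4 to 93.0 in controls and 50.04 to 87.6 in Ox1RΔSERT mice, with a log2 fold change of 0.021 ± 0.20. *Pdk3* had the lowest level of the set, at 0.70 to 1.28 in controls, 0.895 and 0.763 in 11243 and 11613, and 1.71 and 2.37 in 11708 and 11601, and was the single gene of the 35 that had its 2 highest values in 11708 and 11601. In all genes tested, 20.1% did. Its lowest count in a mouse was 31, the lowest of the set, and its log2 fold change of 0.55 ± 0.40 did not pass any threshold. *Pdk4*, from the list of other pathway genes, had 824, 1951, 1364 and 1424 in controls 10684, 11253, 11563 and 11560 and 1687, 1512, 2639 and 1480.0 in mice 11708, 11243, 11613 and 11601. The groups overlapped, with control 10684 lowest and 11613 highest, and the log2 fold change was 0.40 ± 0.28 (unadjusted p = 0.196).

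Pyruvate crosses the inner membrane through a carrier of the paired proteins *Mpc1* and *Mpc2*, and pyruvate carboxylase (*Pcx*) turns it into oxaloacetate to refill the cycle. *Mpc2* had normalized values of 343, 306, 311 and 345 in controls 10684, 11253, 11563 and 11560 and 204, 328.5, 243 and 235 in mice 11708, 11243, 11613 and 11601. Mouse 11243 lay among the controls and the other three lay below. The log2 fold change was -0.37 ± 0.15 (unadjusted p = 0.0342, adjusted p = 0.317 in edgeR, exact permutation p = 0.0857). Its partner *Mpc1* had 478 to 569 in controls and 370 to 603 in Ox1RΔSERT mice, with a log2 fold change of -0.10 ± 0.16. The TPM ratio of *Mpc2* to *Mpc1* was 0.624 to 0.688 in controls and 0.541, 0.588, 0.463 and 0.677 in mice 11708, 11243, 11613 and 11601, where 11601 overlapped with the controls. Of the 31-base words of *Mpc1*, 12.6% are shared with the pseudogene *Mpc1-ps*, which had a mean normalized value of 0.005. *Pcx* was nearly level, with 372 to 497 in controls and 315 to 487 in Ox1RΔSERT mice (log2 fold change -0.033 ± 0.16). *Pck2*, the mitochondrial PEP carboxykinase, was low, at 6.70 to 10.9 in controls and 6.29 to 8.95 in Ox1RΔSERT mice, with a log2 fold change of -0.18 ± 0.19. On log2(TPM + 1), *Mpc2* alone of these 4 was below 0.

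From citrate to succinyl-CoA, the log2 fold changes of the 7 genes lay between -0.30 and -0.12 after TMM scaling, and all 7 were above 0 on log2(TPM + 1). None had an unadjusted p under 0.05. The lowest was that of *Idh3a*, the catalytic subunit of the NAD-dependent isocitrate dehydrogenase that makes 2-oxoglutarate. It had 1616, 1389, 1485 and 1591 in controls 10684, 11253, 11563 and 11560 and 1062 (11708), 1491 (11243), 1234 (11613) and 1147 (11601) in Ox1RΔSERT mice. Again 11243 was among the controls and the other three below, with a log2 fold change of -0.30 ± 0.13 (unadjusted p = 0.0526, adjusted p = 0.332). Its partner subunits *Idh3b* and *Idh3g* had -0.22 and -0.19, and in 11613 they stood at 1376 and 1208, in or above the control ranges of 1217 to 1383 and 1038 to 1191. The TPM ratio of *Idh3a* to *Idh3b* was 0.625 in 11613 and 0.725 to 0.836 in the other 7 mice. Citrate synthase (*Cs*), the entry step, had 1613 to 1873 in controls, 1325 and 1279 in 11708 and 11601, and 1815 and 1719.8 in 11243 and 11613, with a log2 fold change of -0.16 ± 0.15. *Ogdh* and *Dlst*, the first enzyme and the core of 2-oxoglutarate dehydrogenase, had -0.20 and -0.23, and *Idh2*, the NADP-dependent isocitrate dehydrogenase of mitochondria, had -0.12.

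The succinyl-CoA ligases make the ATP or GTP of the cycle itself. *Suclg1* is the subunit common to both forms, *Sucla2* the ATP-forming and *Suclg2* the GTP-forming subunit. *Sucla2* had normalized values of 1842, 1543, 1516 and 1559.7 in controls 10684, 11253, 11563 and 11560, and 1074, 1464, 1247 and 1179.7 in mice 11708, 11243, 11613 and 11601. All 4 Ox1RΔSERT values were below all 4 controls, though 11243 was close to the lowest control. The group means were 1615 ± 152 and 1241 ± 164 (SD, n = 4 each). The log2 fold change was -0.38 ± 0.13 (SE) with an unadjusted p of 0.0198 and an adjusted p of 0.316 in edgeR, and an exact permutation test gave p = 0.0286, its minimum with 4 mice a group. *Suclg2* had 205, 159, 161 and 174 in the controls and 119, 169, 148 and 124 in the Ox1RΔSERT mice, with 11243 among the controls. Its log2 fold change was -0.32 ± 0.14 (unadjusted p = 0.0468, adjusted p = 0.327 in edgeR, exact permutation p = 0.0857). *Suclg1* had a log2 fold change of -0.25 ± 0.15. The 3 subunits were thus all below 0 after TMM scaling, while on log2(TPM + 1) *Suclg1* and *Suclg2* were above 0 and *Sucla2* stayed below. Of the 31-base words of *Suclg2*, 20.6% occur in other genes, nearly all of them in the pseudogene *Gm15163*, which had a mean normalized value of 0.006, and for *Sucla2* the share was 0.1%.

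Succinate dehydrogenase is complex II of the respiratory chain and the only cycle enzyme set in the membrane, with a flavin subunit (*Sdha*), an iron-sulfur subunit (*Sdhb*) and 2 membrane anchors (*Sdhc*, *Sdhd*). *Sdhb* had normalized values of 982, 913, 838 and 882 in controls 10684, 11253, 11563 and 11560 and 572, 832, 815 and 583 in mice 11708, 11243, 11613 and 11601. The groups did not overlap, but 11243 and 11613 lay just under the lowest control and 11708 and 11601 far under it. The means were 903 ± 60.5 and 701 ± 142 (SD, n = 4 each), with a log2 fold change of -0.37 ± 0.15, an unadjusted p of 0.0421, an adjusted p of 0.324 in edgeR, and an exact permutation p of 0.0286. *Sucla2* and *Sdhb* were the 2 of the 35 genes (5.71%) without overlap, both lower, against 2.81% of all genes tested that were lower without overlap and 2.69% that were higher. With RLE scaling there were the same 2 genes, with an offset for transcript length *Sucla2* alone, and with library sizes alone or TPM none. The share of all genes without overlap is given for TMM scaling only, so these other counts describe the set alone. The other subunits were closer together, with log2 fold changes of -0.22 (*Sdha*), -0.20 (*Sdhc*) and -0.21 (*Sdhd*), and overlapped between the groups. On log2(TPM + 1) these 3 were above 0 and *Sdhb* below. The TPM ratio of *Sdhb* to *Sdhc* was 2.54, 2.97, 2.38 and 2.43 in controls and 2.23, 2.29, 2.004 and 2.02 in Ox1RΔSERT mice, without overlap, while that of *Sdhb* to *Sdha* was 0.880 to 1.12 and 0.803 to 0.8996, which overlapped. These pairs were also picked after their values were seen.

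**Figure D4:**
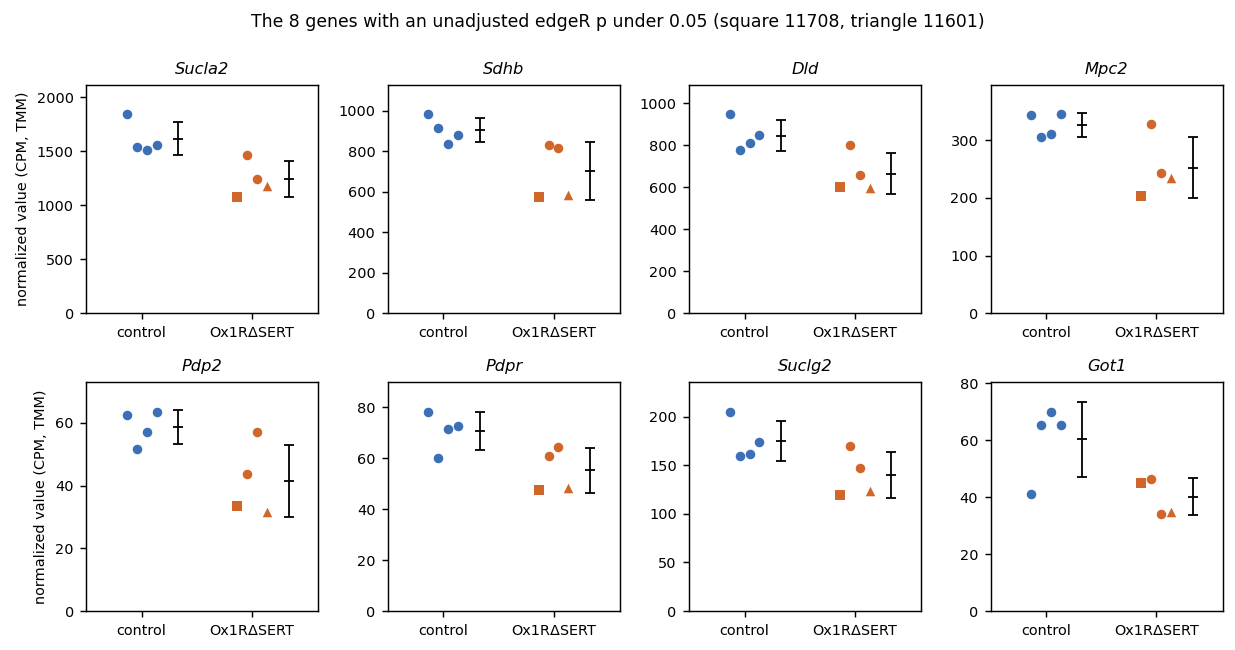
Normalized values (CPM after TMM scaling) of the 8 genes with an unadjusted edgeR p under 0.05, one point per mouse, with the mean and SD of each group in black. Squares are mouse 11708 and triangles 11601. The groups are apart in *Sucla2* and *Sdhb* and overlap in the other 6. None passed the adjusted threshold, and on log2(TPM + 1) *Dld*, *Pdpr* and *Suclg2* turned to values above 0.

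The promoter windows of these 2 genes and of *Sdhd* are shown because *Sucla2* and *Sdhb* were the genes without overlap and *Sdhd* is the complex II gene whose window holds a searched motif. The windows run from 250 bases before to 50 bases after a RefSeq start on GRCm38.p6, and 32 of the 35 genes had one (not *Idh3a*, *Pdp1* and *Sdhc*). Each is written from 5′ to 3′ on the strand of its gene, with motif matches on either strand in capitals. That of *Sucla2* is chr14:73552536-73552835 on the plus strand, inside the GENCODE span of the gene (chr14:73525319-73596142). That of *Sdhb* is chr4:140961021-140961320 on the plus strand, and that of *Sdhd* is chr9:50603800-50604099 on the minus strand.
Sucla2: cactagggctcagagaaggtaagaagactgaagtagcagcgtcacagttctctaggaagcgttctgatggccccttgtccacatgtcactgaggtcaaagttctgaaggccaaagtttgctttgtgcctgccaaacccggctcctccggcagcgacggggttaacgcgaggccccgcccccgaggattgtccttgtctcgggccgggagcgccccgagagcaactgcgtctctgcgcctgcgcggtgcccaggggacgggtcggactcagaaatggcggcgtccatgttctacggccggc
Sdhb: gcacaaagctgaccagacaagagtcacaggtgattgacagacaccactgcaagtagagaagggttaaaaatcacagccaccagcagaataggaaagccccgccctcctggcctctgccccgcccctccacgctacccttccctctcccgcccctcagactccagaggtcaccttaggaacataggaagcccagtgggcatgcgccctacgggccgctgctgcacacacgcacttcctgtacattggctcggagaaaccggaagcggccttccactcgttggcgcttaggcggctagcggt
Sdhd: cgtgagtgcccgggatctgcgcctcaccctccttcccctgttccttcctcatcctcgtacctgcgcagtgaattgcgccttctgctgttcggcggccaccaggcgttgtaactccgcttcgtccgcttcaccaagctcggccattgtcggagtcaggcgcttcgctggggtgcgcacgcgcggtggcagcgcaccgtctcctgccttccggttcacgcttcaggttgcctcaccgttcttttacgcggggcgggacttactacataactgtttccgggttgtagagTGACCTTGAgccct

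Motifs of 4 regulators of nuclear genes for mitochondrial proteins were searched on both strands. The letters were TNAAGGTCA for the estrogen-related receptors, CCGGAAGTG for GABP, GCGCATGCG for NRF1 and AAGATGGCG for YY1. Each was found in 1 of the 32 genes (3.12%), in *Sdhd*, *Dlst*, *Ogdh* and *Idh3g* in this order, against 1.43%, 2.25%, 1.95% and 1.64% of the 27025 genes with a window. In *Sdhd* the match starts at base 287 of the window, on the opposite strand. The windows of *Sucla2* and *Sdhb* held none of the 4. A match of letters says nothing of whether a factor binds, nor does its absence. The median GC content of the set's 41 windows was 61.3%, against 52.7% of all windows.

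Fumarase (*Fh1*) and the malate dehydrogenases of mitochondria (*Mdh2*) and cytosol (*Mdh1*) close the cycle and link it to the cytosol. The log2 fold changes were -0.20, -0.28 and -0.16 in this order after TMM scaling, and above 0 on log2(TPM + 1). *Mdh2* had 1264, 1173, 1156 and 1168 in controls 10684, 11253, 11563 and 11560 and 779, 1148, 1176 and 819.8 in mice 11708, 11243, 11613 and 11601. The controls were close together, with a coefficient of variation of 4.17%, and 11708 and 11601 lay far below the lowest of them, while 11243 was just under and 11613 among them. The unadjusted p was 0.114 and the adjusted p 0.408. *Fh1* had the smallest coefficient of variation among controls in the set, 2.98%, with a range of 668 to 716, and 484 and 493 in 11708 and 11601 but 694 and 728 in 11243 and 11613.

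The transaminases and glutamate dehydrogenase exchange cycle intermediates with amino acids, and with *Mdh1* and *Mdh2* the transaminases form the malate-aspartate shuttle. *Got1*, the cytosolic aspartate transaminase, had the lowest unadjusted p of the set. It had 41.0, 65.2, 69.9 and 65.3 in controls 10684, 11253, 11563 and 11560 and 45.1, 46.3, 34.1 and 34.8 in mice 11708, 11243, 11613 and 11601. The 4 Ox1RΔSERT values lay below 3 of the controls, and control 10684 lay among them. The log2 fold change was -0.59 ± 0.18 (SE, unadjusted p = 0.0106, adjusted p = 0.316 in edgeR, exact permutation p = 0.0857). *Got1* did not share the order of mice of the rest of the set, since its lowest values were in 11613 and 11601, and its log2 fold change without 11601 and 11708 was -0.58 (unadjusted p = 0.0420). It was below 0 under every scaling, the TPM scale included. Without control 10684, DESeq2 called it alone of the 35 (adjusted p = 0.000801, log2 fold change -0.74), where it called 373 of 14105 genes (2.64%), and edgeR did not.

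*Got2*, the mitochondrial aspartate transaminase, went the other way. It had 12.3, 23.3, 10.7 and 12.9 in controls 10684, 11253, 11563 and 11560 and 28.4, 14.5, 12.5 and 22.7 in mice 11708, 11243, 11613 and 11601. Its 3 highest values, in 11708, 11253 and 11601, were in the 3 mice with the highest sums of skeletal muscle markers, and the part of muscle RNA in this was not tested. The log2 fold change was 0.40 ± 0.32 (unadjusted p = 0.243), and it was -0.12 without 11601 and 11708. Of its 31-base words, 20.3% are shared with *Got2-ps1*, which had a mean normalized value of 0.003. *Glud1*, glutamate dehydrogenase, had 204 to 269 in controls and 185, 209.9, 209 and 209.7 in mice 11708, 11243, 11613 and 11601, all within the control range but the first, with a log2 fold change of -0.16 ± 0.11 that was above 0 on log2(TPM + 1).

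Ratios between 2 genes of one mouse do not depend on the scaling of its library. Of the 595 ratios that the 35 genes allow, 48 (8.07%) did not overlap between the groups. *Sdhb* was lower relative to 9 of the 34 other genes in this sense and higher relative to 0, *Pdpr* lower relative to 7, *Pdp2* to 6, *Suclg2* to 5 and *Dld* to 4. At the other end, *Pdhb* was higher relative to 11 genes, *Idh2* to 8 and *Dlat* to 6, and lower relative to 0. *Got1*, *Got2*, *Glud1*, *Mpc1*, *Pck2*, *Pdk3* and *Pdp1* had 0 such ratios in either direction. The ratios share genes and are not independent, and no test was made of them. The share without overlap among ratios of other genes was not counted. These counts therefore do not set the 35 genes, or any of them, apart from other genes.

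Of the other genes of the pathway, 38 were listed, 37 were in the table and 34 were tested. They are carriers, lipoylation and assembly factors, malic enzymes, lactate dehydrogenases, cytosolic isoforms and the like. At an unadjusted p under 0.05, 2 of the 34 were lower and 1 higher, near or under the shares of all genes (4.96% and 10.2%), and edgeR and DESeq2 called 0. These 3 genes are named because they passed that unadjusted threshold. *Acss1*, the mitochondrial acetyl-CoA synthetase that makes acetyl-CoA from acetate, had 392, 321.5, 277 and 337 in controls 10684, 11253, 11563 and 11560 and 203, 251, 289 and 207 in mice 11708, 11243, 11613 and 11601. Only 11613 reached the control range, and the log2 fold change was -0.48 ± 0.15 (unadjusted p = 0.0116, adjusted p = 0.316). *Sdhaf3*, an assembly factor for the iron-sulfur subunit encoded by *Sdhb*, had 10.1 to 11.6 in controls and 7.47, 10.4, 8.13 and 7.36 in mice 11708, 11243, 11613 and 11601, with a log2 fold change of -0.35 ± 0.14 (unadjusted p = 0.0320). *Slc25a13*, a mitochondrial aspartate-glutamate carrier, was low everywhere, at 0.0903 to 0.602 in controls and 2.63, 0.371, 0.135 and 1.105 in mice 11708, 11243, 11613 and 11601, and had a log2 fold change of 2.11 ± 0.92 (unadjusted p = 0.0475). Its counts were 4 to 128, and its log2 fold change was 0.066 without 11601 and 11708. Its highest values were in 11708, 11601 and control 11253, the mice with the highest sums of skeletal muscle markers. The part of muscle RNA in this was not tested. The median of the 34 was -0.086 after TMM scaling and 0.24 on log2(TPM + 1).

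Nuclear genes of complex I, which takes up the cycle's NADH, were set beside the 35. So were the protein genes of the mitochondrial genome, not all of which belong to complex I. All 36 nuclear complex I subunits tested had log2 fold changes below 0 after TMM scaling, with a median of -0.29, and 12 of them had an unadjusted p under 0.05 (4.96% of all genes were lower at that threshold), while on log2(TPM + 1) 16 were below 0 and 20 above. All 13 mitochondrially encoded protein genes were below 0 after TMM scaling, with a median of -0.44, and 11 of 13 were below 0 on log2(TPM + 1). The median of the 35 genes, -0.20, was thus nearer to 0 than either, but the difference between the lists was not tested. Without 11601 and 11708, the medians were -0.024 for the 35 genes, -0.049 for complex I and -0.23 for the mitochondrially encoded genes. Without this pair, 0 of the 36 complex I genes had an unadjusted p under 0.05, near the shares of all genes (1.2% lower and 1.66% higher). This pair of mice was picked from these data and was lowest for the 35 genes and for complex I. The summed level of complex I subunits was 7029 in 11708 and 7515 in 11601, against 10274 to 10950.5 in controls and 10549 and 10289.7 in 11243 and 11613, the same split of the Ox1RΔSERT mice as in the 35 genes.

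Some markers of cell types divided the mice in this way and others did not. Brown adipocyte markers summed to 13398 to 14710 in controls and to 8792 in 11708, 12761 in 11243, 12215 in 11613 and 9535 in 11601, so that all 4 Ox1RΔSERT mice were below the controls. The list held *Ucp1*, *Cidea*, *Dio2*, *Ppargc1a*, *Prdm16*, *Adipoq*, *Plin1*, *Fabp4*, *Cox7a1* and *Elovl3*. Because *Adipoq*, *Plin1* and *Fabp4* are genes of adipocytes in general, the sum is not particular to brown adipocytes. Of these 10 markers, 4 had an unadjusted p under 0.05, all lower, where 4.96% of all genes were lower. The median log2 fold change of the 10 was -0.35 after TMM scaling. On log2(TPM + 1) it was -0.057, with 5 below 0 and 5 above. All 8 macrophage and leukocyte markers tested had an unadjusted p under 0.05 and were higher, where 10.2% of all genes were higher. Their median was 1.67, with sums of 605 in 11708 and 772 in 11601, against 90.2 to 209 in controls and 145 and 153 in 11243 and 11613. All 6 fibroblast and matrix markers were higher at that threshold, with a median of 1.91 and sums of 3059 in 11708 and 6419 in 11601, against 429 to 1161 in controls. On log2(TPM + 1) all 8 macrophage and leukocyte markers and all 6 matrix markers were also above 0. The 4 endothelial markers had a median of -0.017, and their sums overlapped, at 235 to 333 in controls and 228 to 315 in Ox1RΔSERT mice. Skeletal muscle markers were highest in 11708 (2373) and control 11253 (1727), followed by 11601 (189). The part of these cell types in the values of the 35 genes was not tested.

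**Figure D5:**
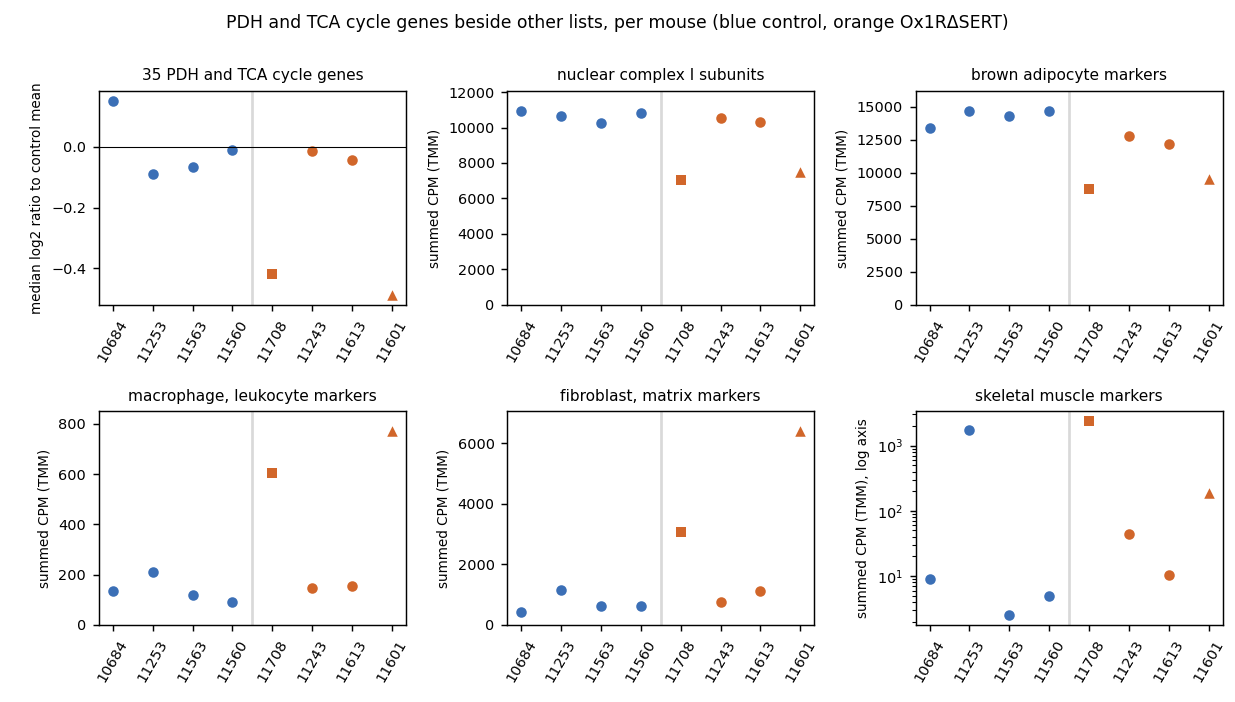
For each mouse, the median log2 ratio of the 35 genes to the control mean, and summed normalized values (CPM after TMM scaling) of nuclear complex I subunits and of markers of brown adipocytes, macrophages and leukocytes, fibroblasts and matrix, and skeletal muscle (log axis). Mice 11708 (square) and 11601 (triangle) are lowest in the top row and highest for macrophage and matrix markers, while 11243 and 11613 lie near the controls. The direction in the top row is that after TMM scaling, and on log2(TPM + 1) the medians of the 35 genes and of complex I were above 0.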

How the data were processed

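BAT of 4 control and 4 Ox1RΔSERT mice was compared. Stranded libraries of poly-A RNA were quantified by the authors on GRCm38 with the nf-core/rnaseq pipeline, whose quantifier was Salmon 0.14.1. The annotation release is not given in the sources used here. Of the deposited values, the estimated counts are without normalization by the authors, and TPM are the authors' values per transcript length, scaled to one sum in each mouse. The columns of the 8 mice were mapped by mouse number.

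Symbols and positions came from GENCODE M21 (44118 of 44674 identifiers matched). Estimated counts were rounded to whole numbers, filtered (filterByExpr on the groups), TMM scaled and tested with edgeR 4.0.16 (glmQLFit and glmQLFTest, 8 libraries, no covariates, two-sided) in R 4.3.3, with Benjamini-Hochberg adjustment over all 14489 genes and a threshold of 0.05. Normalized values are CPM after TMM scaling. Standard errors came from the F statistic. The exact permutation tests used all 70 assignments of 4 mice against 4 and cannot give a p below 0.0286. Alternatives were DESeq2 1.42.0, RLE scaling, library sizes alone, no filter or at least 10 counts in every library, an offset for transcript length, limma 3.58.1 (voom, and limma-trend on log2 of TPM with a pseudocount of 1 or 0.1), a threshold of 0.1 and each library left out. The scripts were tested on simulated counts.

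The 35 genes, the lists and the marker genes were chosen with earlier results of these data known. Values per mouse are given for genes with an unadjusted p under 0.05 or no overlap, and for at least the gene with the lowest p in each role. Genes of the other pathway list are named with values where the unadjusted p was under 0.05, and *Pdk4* was added after its values were seen. Marker genes appear only as lists. Shared sequence was counted as 31-base words of a gene's annotated transcripts found in transcripts of other genes. Promoter windows are from RefSeq on GRCm38.p6. No protein sequences were used here.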

Additional observations from a re-analysis of the deposited data

Results flagged for a closer look

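In 8 of the 70 groups of 4 mice examined (35 genes in 2 groups), the highest or lowest normalized value stood further from the other three than Dixon's critical ratio allows, where chance gives about 3.5. Of these, 7 were in control mouse 10684. It was the highest control for *Mdh1* (667 against 525 to 531), *Sdhd* (629.7 against 582 to 587), *Pcx* (497 against 372 to 385), *Sucla2* (1842 against 1516 to 1559.7), *Dlst* (1242 against 939 to 986) and *Mdh2* (1264 against 1156 to 1173), and the lowest for *Got1* (41.0 against 65.2 to 69.9). The last was in Ox1RΔSERT mouse 11708, with *Glud1* at 185 against 209 to 209.9. Genes of one mouse share its library, so these are not independent.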

How the results depend on the processing

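The count of 0 genes called by edgeR out of 35 held in every alternative fit with all 8 libraries, at an adjusted p under 0.1, without any single library and without mice 11601 and 11708 together. Leaving out this pair was added after the data had been seen, except for the median. The pair itself came from these data in each case. DESeq2 called 0 with all libraries, 1 (*Got1*) without control 10684 (2.64% of all genes were then called), 5 (*Dld*, *Mpc2*, *Idh3a*, *Sucla2* and *Got1*) without Ox1RΔSERT mouse 11243 (9.44%), 1 (*Pdp2*) without 11613 (6.02%), and 0 without each of the other 5 mice. The count of 8 genes at an unadjusted p under 0.05 was 6 to 9 with DESeq2, RLE scaling, other filters, a length offset or voom, 0 with library sizes alone and on both TPM scales, 1 without 11601 and 11708, and 1 to 11 with a single library left out. The 2 genes without overlap became 1 with the length offset and 0 with library sizes alone and on TPM. For the other scalings, filters and tools, both counts are given without the share of all genes and describe the set alone. The median log2 fold change of -0.20 was between -0.30 and -0.12 with a single library left out, and turned to 0.11 on both TPM scales (0.108 with a pseudocount of 1, 0.109 with 0.1). The 5 genes *Pdp2*, *Mpc2*, *Sucla2*, *Sdhb* and *Got1* kept their direction throughout, and the other 30 turned in at least 1 alternative, none of them past a threshold. The cause was not tested. On log2(TPM + 1) the values that turned were 0.0072 in *Dld*, 0.013 in *Suclg2*, 0.017 in *Pdpr*, 0.020 in *Mdh2*, 0.038 in *Idh3a*, 0.068 in *Suclg1*, 0.086 in *Fh1*, 0.094 in *Idh3b*, 0.096 in *Pdhx*, 0.098 in *Sdhd*, 0.11 in *Dlst*, *Sdha*, *Pck2*, *Pdha1* and *Idh3g*, 0.12 in *Ogdh*, 0.16 in *Cs*, 0.18 in *Glud1*, 0.19 in *Mpc1*, 0.20 in *Sdhc* and *Pdk2*, 0.21 in *Idh2*, 0.23 in *Mdh1* and *Dlat*, 0.25 in *Pdhb*, 0.26 in *Pdp1* and 0.27 in *Pcx*. With a pseudocount of 0.1 the same genes turned, with the same rounded values except 0.0073 in *Dld*, 0.018 in *Pdpr*, 0.098 in *Pdhx*, 0.15 in *Pck2*, 0.19 in *Glud1*, 0.21 in *Pdk2* and 0.32 in *Pdp1*. With library sizes alone they were 0.0042 in *Idh3g*, 0.033 in *Cs*, 0.039 in *Mdh1*, 0.044 in *Pck2*, 0.051 in *Glud1*, 0.081 in *Idh2*, 0.083 in *Pdk2*, 0.088 in *Dlat*, 0.089 in *Mpc1*, 0.12 in *Pdhb*, 0.17 in *Pcx* and 0.20 in *Pdp1*. Without mice 11601 and 11708 they were -0.23 in *Pdk3*, -0.12 in *Got2*, 0.00083 in *Dlst*, 0.010 in *Ogdh*, 0.014 in *Mdh1*, 0.018 in *Idh3b*, 0.024 in *Sdhd*, 0.035 in *Sdhc*, 0.045 in *Idh3g*, 0.046 in *Fh1*, 0.047 in *Cs*, 0.075 in *Idh2*, 0.088 in *Dlat*, 0.13 in *Pdk2*, *Pdhb* and *Mpc1* and 0.15 in *Pcx*. With a single library left out, the ranges that crossed 0 were -0.24 to 0.0090 for *Mpc1*, -0.15 to 0.071 for *Pcx*, -0.17 to 0.014 for *Pdhb*, -0.091 to 0.18 for *Pdk1*, -0.23 to 0.0037 for *Pdk2* and -0.29 to 0.13 for *Pdp1*. No paired analysis was possible because the labels number the mice only individually and do not say which were litter-mates. Depth does not limit most of these genes, whose lowest counts in a mouse had a median of 16327, except *Pdk3* with 31 counts in its lowest mouse.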
